A study of Mus musculus with 6 samples.

Results

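The 9 genes described here are those of the growth hormone cell, the somatotrope, and of its control: Gh, Ghrhr, Pou1f1, Ghsr, Sstr2, Sstr5, Gnas, Ghr and Igf1. They are 9 of the 30175 gene names on the array and were taken by symbol from the annotation of the arrays, with every probe kept, which gave 17 probes of the 39429 on the array. The rule uses symbols and no measured value, although the genes were proposed with earlier results of these data known. Of these 17 probes, 16, covering 8 genes, had signal well above background on 2 arrays or more and entered the fit, which held 27252 such probes. The Ghsr probe was above background on none.

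Growth hormone releasing hormone (GHRH) from the hypothalamus binds its receptor on somatotropes, which acts through the stimulatory G protein and cAMP to raise growth hormone synthesis and release. Somatostatin opposes this through inhibitory receptors, and ghrelin adds to it through a receptor of its own. Growth hormone then acts on its receptor in liver and other tissues to induce insulin-like growth factor 1, which feeds back on the pituitary. The transcription factor POU1F1 is needed for the somatotrope, lactotrope and thyrotrope lineages.

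RNA came from side population cells of the anterior pituitary of female mice, a fraction defined by efflux of the Hoechst dye and sorted by flow cytometry with the cells of highest Sca1 level left out. This fraction is one in which pituitary stem cells cluster, so somatotropes are not the cells that the sort aims at. GHCre mice carried GHCre/iDTR, a Cre driver named for growth hormone together with an inducible diphtheria toxin receptor, and control mice carried -/iDTR, the receptor gene without the driver. Diphtheria toxin was given to both genotypes for 3 or 10 days, in 2 doses a day of 4 ng for each g of weight. The groups were GHCre after 3 days (2 arrays), control after 3 days (2 arrays), GHCre after 10 days (1 array) and control after 10 days (1 array). The receptor gene and the toxin are thus shared by all groups, and with Cre driven by growth hormone the toxin is aimed at cells that make it. The labels used here give no age and do not say whether animals were pooled, so p-values measure only the spread between these samples, which may be technical. Free-text descriptions of both 10 day arrays and of replicate 2 of control after 3 days disagreed with their titles. The titles, which match the genotype and treatment fields, were used, so every 10 day result rests on that choice.

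The 6 arrays lay on 3 slides. Slide 1 held replicate 1 of GHCre and of control after 3 days, slide 2 held the control array of 10 days alone, and slide 3 held replicate 2 of GHCre and of control after 3 days with the GHCre array of 10 days. Between 53.8% and 65.7% of the probes were well above background on an array, and log2 levels of different arrays correlated across probes at 0.895 to 0.938. Prl, the lactotrope hormone, had levels of 10.35 to 11.08 over the 6 arrays. The stem cell marker Sox2 was above background on none of the arrays, while 5 of the 8 stem cell markers were tested. Levels are log2 signals relative to the 75th percentile of the same array, so that 0 is that percentile, and probes of different genes are not compared in level.

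Probes that cross an intron can read spliced RNA of the gene. The sequences of the Gh, Ghrhr and Sstr2 probes are shown because the 60 bases of each are spread over a longer stretch of genome. All are given 5′ to 3′ in mm9, the build of the array annotation.
Gh, chr11:106162492-106162735, minus strand: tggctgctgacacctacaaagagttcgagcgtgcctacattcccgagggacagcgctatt
Ghrhr, chr6:55334145-55334751, plus strand: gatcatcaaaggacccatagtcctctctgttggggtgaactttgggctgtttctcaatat
Sstr2, chr11:113486505-113486903, plus strand: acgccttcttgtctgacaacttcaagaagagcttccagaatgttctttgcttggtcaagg
The genomic span exceeded the length of the probe by 184 bases for Gh, 547 bases for Ghrhr and 339 bases for Sstr2. By the annotation these 3 probes thus cross a gap in the genome, while each of the other 14 probes matched one continuous stretch. The coordinates do not give how many bases lie on each side of a gap, so reading of unspliced RNA is not excluded.

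Gh, which encodes growth hormone and whose name the Cre driver carries, was above background on every array and varied more between slides than between genotypes after 3 days. Its level was 5.46 and 2.20 in the GHCre arrays of 3 days, against 5.69 and 3.65 in the control arrays of 3 days. The 10 day levels were 2.21 in the GHCre array and 7.86 in the control array. The 3 arrays of slide 3 held the 3 lowest levels, in either genotype, and the array that stood alone on slide 2 the highest. Slide 3 minus slide 1, after 3 days, was -3.25 in GHCre and -2.04 in control. The GHCre and control ranges of 3 days overlapped.

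The genotype difference of Gh after 3 days was -0.84 ± 1.42 (log2, SE, n = 2 each), with a 95% interval of -4.76 to 3.08 and an adjusted p of 0.934 in the limma fit across all probes. Within slides the GHCre array was lower both times, by a log2 difference of -0.24 on slide 1 and -1.45 on slide 3. Without replicate 2 of GHCre the difference was 0.78 and without replicate 1 of control it was 0.18, of opposite sign. Leaving out 1 array also unbalances the slides, so that the difference between slides enters these values. On slide 3 the GHCre arrays of 3 and 10 days had almost the same level, 2.20 and 2.21, and both lay below the control array of that slide at 3.65. In bulk RNA of this kind, fewer cells of a type and less RNA per cell cannot be told apart.

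After 10 days the GHCre array was 50.4-fold lower in Gh signal than the control array. The log2 difference was -5.65 ± 2.00 with a 95% interval of -11.2 to -0.11, an unadjusted p of 0.0472 and an adjusted p of 1, with an error borrowed from the 3 day arrays, since neither array has a replicate. Genotype and slide cannot be told apart here, because the control array of 10 days was the only array on slide 2. Over both days the difference was -2.45 ± 1.44 (3 arrays of each genotype, adjusted p = 0.89), and its change between days was -4.81 ± 2.45 (adjusted p = 1).

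**Figure D1:**
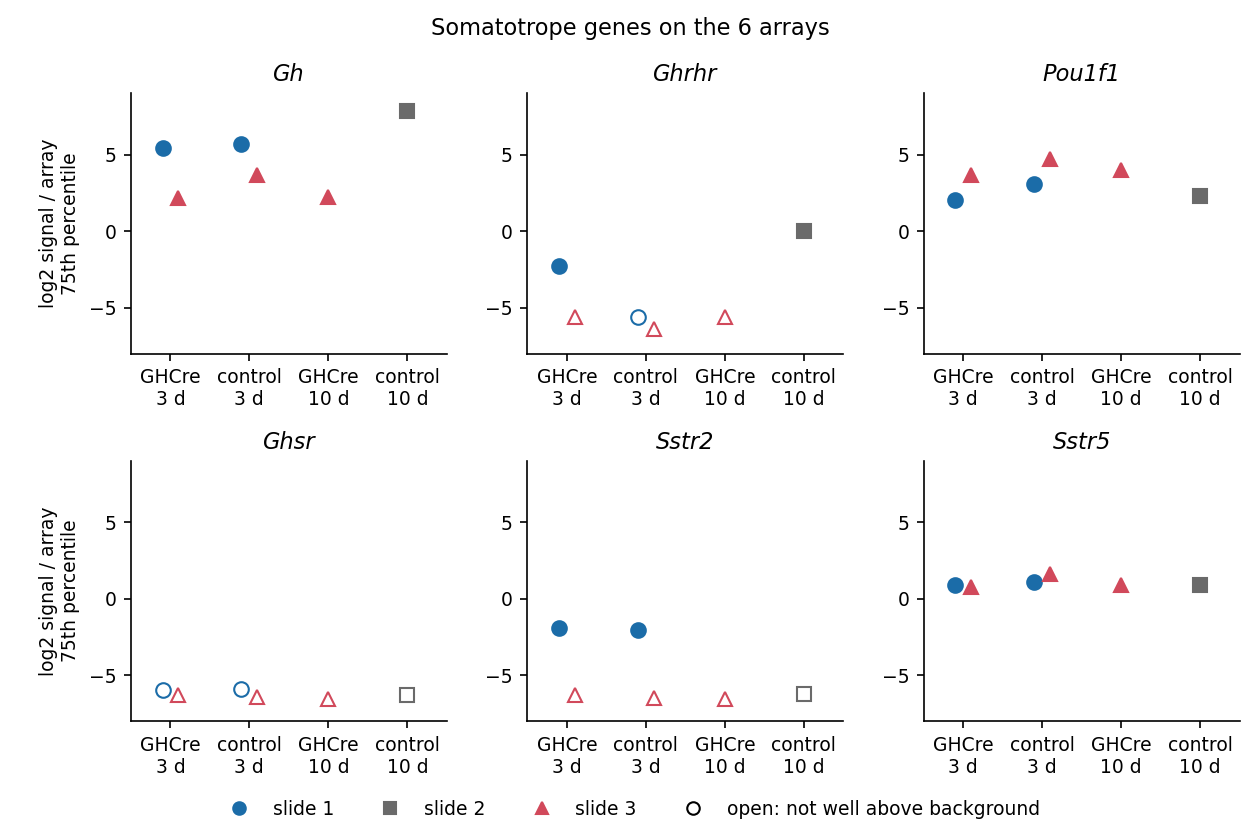
Log2 level relative to the 75th percentile of the array (vertical axis) of 6 genes on each array, by genotype and days of toxin. Symbol shape and colour give the slide and open symbols are not well above background. Gh is lowest on the 3 arrays of slide 3, Pou1f1 is highest there, and Ghrhr is above background only on a GHCre array of 3 days and on the control array of 10 days.

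Ghrhr, the receptor of GHRH and the entry point of that signal, was well above background on 2 arrays. Its level was -2.30 and -5.59 in the GHCre arrays of 3 days, against -5.59 and -6.40 in the control arrays of 3 days. At 10 days Ghrhr was -5.62 in the GHCre array, against 0.01 in the control array. The arrays above background were replicate 1 of GHCre after 3 days and the control array of 10 days, so each genotype had 1. The signal in the 4 other arrays was not distinguished from background.

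No fold is given for Ghrhr after 3 days for that reason, and the measured difference of 2.05 ± 1.26 (adjusted p = 0.861) fell to 0.41 without replicate 1 of GHCre. It was 0.12 when the background was modelled with normexp in place of the scanner's own subtraction. That setting also adds an offset of 50 to every signal, which by itself narrows differences between low signals. After 10 days the control array was at least 19.4-fold brighter than the GHCre array, with a measured log2 difference of -5.63 ± 1.78 (unadjusted p = 0.0339, adjusted p = 1). The same difference was -2.30 with normexp, with either scaling. In control the 10 day array was at least 15-fold brighter than the arrays of 3 days (measured difference 6.0 ± 1.54, unadjusted p = 0.0175, adjusted p = 1). The difference between the genotype effects of 10 and 3 days was -7.68 ± 2.18 (unadjusted p = 0.0243, adjusted p = 1), and -2.43 and -2.69 with normexp. These sizes rest on 4 arrays at background.

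Pou1f1, the lineage transcription factor upstream of Gh and Ghrhr, was above background on all 6 arrays and ordered the slides in the opposite way to Gh. Its level was 2.03 and 3.66 in the GHCre arrays of 3 days, against 3.07 and 4.75 in the control arrays of 3 days. At 10 days Pou1f1 was 4.01 in the GHCre array, against 2.27 in the control array. All 3 arrays of slide 3 lay above the 3 other arrays, whereas for Gh all 3 lay below. At 3 days the GHCre array was lower on slide 1 by a log2 difference of -1.04 and on slide 3 by -1.10, a similar gap each time, while the genotype ranges overlapped over the slides.

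The 3 day difference of Pou1f1 was -1.07 ± 0.93 (n = 2 each), with a 95% interval of -3.63 to 1.5 and an adjusted p of 0.89. It ran from -1.91 without replicate 1 of control to -0.22 without replicate 2 of control. After 10 days it was 1.75 ± 1.31 (adjusted p = 1), of opposite sign, between arrays on different slides. Over both days it came to -0.13 ± 0.89. The Pou1f1 probe lies on chromosome 16 at 65534256 to 65534315 of mm9.

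The promoter of Pou1f1 is shown because POU1F1 is known to bind its own promoter. The window is the 250 bases before the RefSeq start site (GRCm38.p6, chr16:65520262-65520511, plus strand), with a match to ATGNATA, the core of the POU1F1 element, in capitals.
Pou1f1 promoter: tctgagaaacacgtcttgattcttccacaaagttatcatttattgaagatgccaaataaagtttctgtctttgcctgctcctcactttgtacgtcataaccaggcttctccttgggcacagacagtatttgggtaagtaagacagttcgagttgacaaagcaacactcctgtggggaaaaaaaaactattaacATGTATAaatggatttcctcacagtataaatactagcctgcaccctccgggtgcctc
The match begins 57 bases before the start site, and another lies 12 bases after it. RefSeq promoter windows of 300 bases were matched for 6 of the 9 genes, with 11 windows in all, searched on both strands. The Pou1f1 window shown was the only one of these 11 with ATGNATA, and the other window of this gene held none. ATGNATA is found in 8.84% of 32851 mouse promoters, so 1 of 11 windows lies near that share. TGACGTCA, the cAMP response element, was found in 1 window, that of Sstr2, at 58 bases before the start site, and in 1.79% of the mouse promoters. These matches are a description of the letters and not of binding.

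Of the somatostatin and ghrelin receptors among the genes described here, only Sstr5 was measured on every array. Sstr5, a somatostatin receptor that restrains growth hormone release (chr17:25626870-25626929, minus strand), had a level of 0.92 and 0.76 in the GHCre arrays of 3 days, against 1.10 and 1.64 in the control arrays of 3 days. The groups did not overlap, with both GHCre arrays lower. After 10 days the levels were 0.90 in the GHCre array and 0.89 in the control array. The 3 day difference was -0.53 ± 0.46 (adjusted p = 0.89), being -0.18 on slide 1 and -0.88 on slide 3.

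Sstr2, the other main somatostatin receptor of the somatotrope, had a level of -1.91 and -6.28 in the GHCre arrays of 3 days, against -2.02 and -6.46 in the control arrays of 3 days. At 10 days Sstr2 was -6.53 in the GHCre array, against -6.23 in the control array. The arrays above background were the pair on slide 1, one of each genotype, and within that slide the difference was 0.10. Ghsr, the ghrelin receptor (chr3:27276818-27276877, plus strand), had -5.95 and -6.26 in the GHCre arrays of 3 days, against -5.89 and -6.45 in the control arrays of 3 days. After 10 days Ghsr had -6.53 in the GHCre array, against -6.26 in the control array. None of these Ghsr values was above background, so no level can be given for this receptor.

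Gnas encodes the stimulatory G protein subunit that couples the GHRH receptor to adenylyl cyclase, and its imprinted locus also gives other transcripts. Its 4 probes lie at different places on chromosome 2 and did not move together. Probe 1, annotated to transcript variant 1 (chr2:174171933-174171992), had 6.35 and 6.94 in the GHCre arrays of 3 days, against 6.97 and 7.03 in the control arrays of 3 days. At 10 days probe 1 had 6.96 in the GHCre array, against 6.82 in the control array. The control arrays of 3 days lay above both GHCre arrays, and the difference was -0.35 ± 0.47 (adjusted p = 0.919).

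Probe 3 of Gnas, annotated to transcript variant 6 (chr2:174125482-174125541), was the only one of the 16 tested probes for which every GHCre array lay above every control array over both days. It had 0.53 and 0.49 in the GHCre arrays of 3 days, against 0.07 and 0.11 in the control arrays of 3 days. At 10 days probe 3 had 0.68 in the GHCre array, against -0.04 in the control array. Such a separation was found for 12.8% of all probes tested, in either direction. Its difference over both days was 0.52 ± 0.30, with an adjusted p of 0.889, and after 3 days it was 0.46 on slide 1 and 0.38 on slide 3. Of the remaining probes, probe 2 (variant 4, chr2:174163501-174163560) had 3 day differences of -2.24 on slide 1 and -0.37 on slide 3, and probe 4 (an Ensembl transcript, chr2:174122337-174122396) had levels from -3.94 to 0.20 over the 6 arrays.

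Ghr encodes the growth hormone receptor, and an alternative mouse transcript encodes the soluble growth hormone binding protein. Probe 1, annotated to transcript variant 2 (chr15:3277543-3277602, minus strand), had 0.58 and 0.46 in the GHCre arrays of 3 days, against 0.93 and -1.12 in the control arrays of 3 days. Its 10 day levels were -0.23 in the GHCre array, and 0.92 in the control array. Probe 2, annotated to transcript variant 1 (chr15:3268107-3268166), had 0.63 and -0.43 in the GHCre arrays of 3 days, against 0.49 and 0.60 in the control arrays of 3 days. Its 10 day levels were -0.80 in the GHCre array, and 0.58 in the control array. The 3 day differences were 0.62 ± 0.84 for probe 1 and -0.44 ± 0.56 for probe 2, of opposite sign, and the 10 day differences were -1.15 and -1.39.

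Igf1, the growth factor induced by growth hormone, was read by 5 probes on the plus strand of chromosome 10. Probe 1 (chr10:87395924-87395983) had 0.43 and -0.72 in the GHCre arrays of 3 days, against -2.49 and -0.84 in the control arrays of 3 days. After 10 days it had 0.09 in the GHCre array, against -0.17 in the control array. Probe 5 (chr10:87399581-87399640) had -1.24 and -1.66 in the GHCre arrays of 3 days, against -2.50 and -2.39 in the control arrays of 3 days. After 10 days it had -2.86 in the GHCre array, against -1.25 in the control array.

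For probe 5 of Igf1 both GHCre arrays lay above both control arrays after 3 days, with a difference of 1.00 ± 0.44 (unadjusted p = 0.0873, adjusted p = 0.796). After 10 days the difference was -1.60, of opposite sign, and the change between days was -2.60 ± 0.77 (unadjusted p = 0.0275, adjusted p = 1). Probe 2 had -0.84 and -0.82 in the GHCre arrays of 3 days, against 0.31 and -2.97 in the control arrays of 3 days, so its control arrays lay on both sides. Probe 1 had a 3 day difference of 1.51 ± 0.82, and probe 4 (chr10:87378456-87378515) one of -1.47 ± 0.84. The probes of this gene thus did not give 1 direction after 3 days.

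Pairs of probes of 1 gene show how far such readings can be carried. Probes 2 (chr10:87393581-87393640) and 3 (chr10:87393561-87393620) of Igf1 share 40 bases, and after each was centred on its mean they differed by 0.12 (root mean square over the 6 arrays), with 0.18 at most. The 9 other pairs of Igf1 probes differed by 0.89 to 1.79 and by up to 3.77 on an array. The 6 pairs of Gnas probes differed by 0.40 to 1.95, and the pair of Ghr probes by 0.85.

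**Figure D2:**
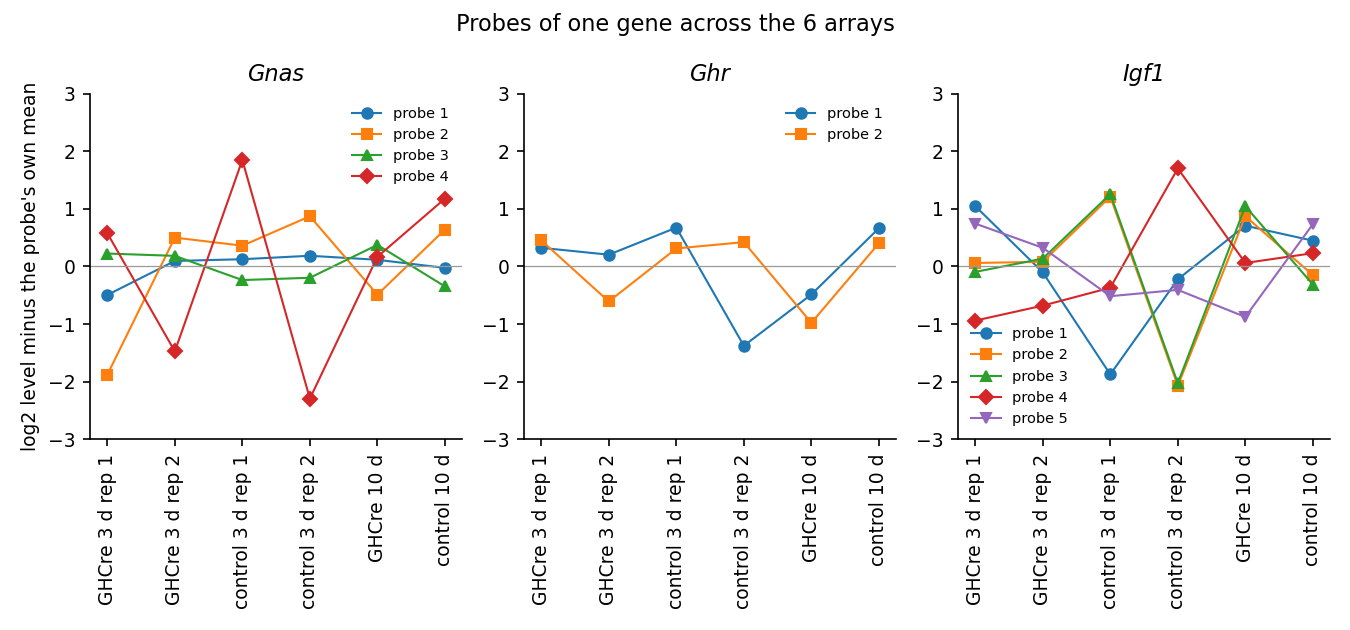
Log2 level of each probe of Gnas, Ghr and Igf1 minus that probe's own mean over the 6 arrays (vertical axis), by array, with lines that join the arrays of a probe as a guide to the eye. The Igf1 probes 2 and 3 run together, and the other probes of each gene take different courses.

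Across the 16 tested probes, 8 were higher and 8 lower in GHCre after 3 days, with a median log2 difference of -0.04, against -0.029 over all probes tested. None of the 16 passed an adjusted p of 0.05, with adjusted p between 0.796 and 0.995 in limma, and 0% of all probes tested did. None had an unadjusted p under 0.05, against 6.67% of all probes. At least 2-fold differences were found for 6 of the 16, 3 in each direction, against 27.9% of all probes, 15.5% higher and 12.4% lower. The 3 day groups did not overlap for 7 of the 16, with GHCre above for 4 and below for 3, against 37.6% of all probes, 17.1% above and 20.5% below. One of those above is Ghrhr, whose values lie at background on 3 of the 4 arrays and have no order there, which leaves 6 probes. With 16 probes, these shares lie near the background. With so few arrays and this spread, a lack of calls does not show that the genotypes did not differ.

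After 10 days, 7 of the 16 probes were higher and 9 lower in GHCre, with a median difference of -0.24, against -0.0031 over all probes. An unadjusted p under 0.05 was reached by 2 of them, Gh and Ghrhr, against 3.05% of all probes, and an adjusted p of 0.05 by none, as for 0% of all probes. At least 2-fold differences were found for 10, of which 3 were higher and 7 lower, against 28.8% of all probes, 13.6% higher and 15.2% lower. These values come from 1 array a group and have no replicate check of their own. The free-text descriptions of both arrays disagreed with the titles used here.

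Over both days 6 of the 16 probes were higher and 10 lower in GHCre. An unadjusted p under 0.05 was reached by 0, against 5.74% of all probes, and 4 differed at least 2-fold, against 18.5% of all probes. The change of the genotype difference between days was at least 2-fold for 7 probes, against 39.8% of all probes, and had an unadjusted p under 0.05 for 2, Ghrhr and Igf1 probe 5, against 4.14% of all probes.

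Set against 3 days, the 10 day array of GHCre differed at least 2-fold for 6 of the 16 probes, 2 higher and 4 lower, against 27.4% of all probes. An unadjusted p under 0.05 was reached by 0 of them, against 4.05% of all probes. In control the 10 day array differed at least 2-fold for 8 probes, 6 higher and 2 lower, against 28% of all probes, and 1, Ghrhr, had an unadjusted p under 0.05, against 4.33% of all probes. Gh was higher by 3.19 ± 1.73 in control and lower in GHCre, by a log2 difference of -1.62 ± 1.73, neither of which passed the threshold. Within slide 3, where the GHCre arrays of both days can be compared, 10 minus 3 days was 0.01 for Gh. Pou1f1 had 1.17 ± 1.13 in GHCre and -1.64 ± 1.13 in control, and 0.36 in GHCre within slide 3. The control array of 10 days shares its slide with no other array.

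**Figure D3:**
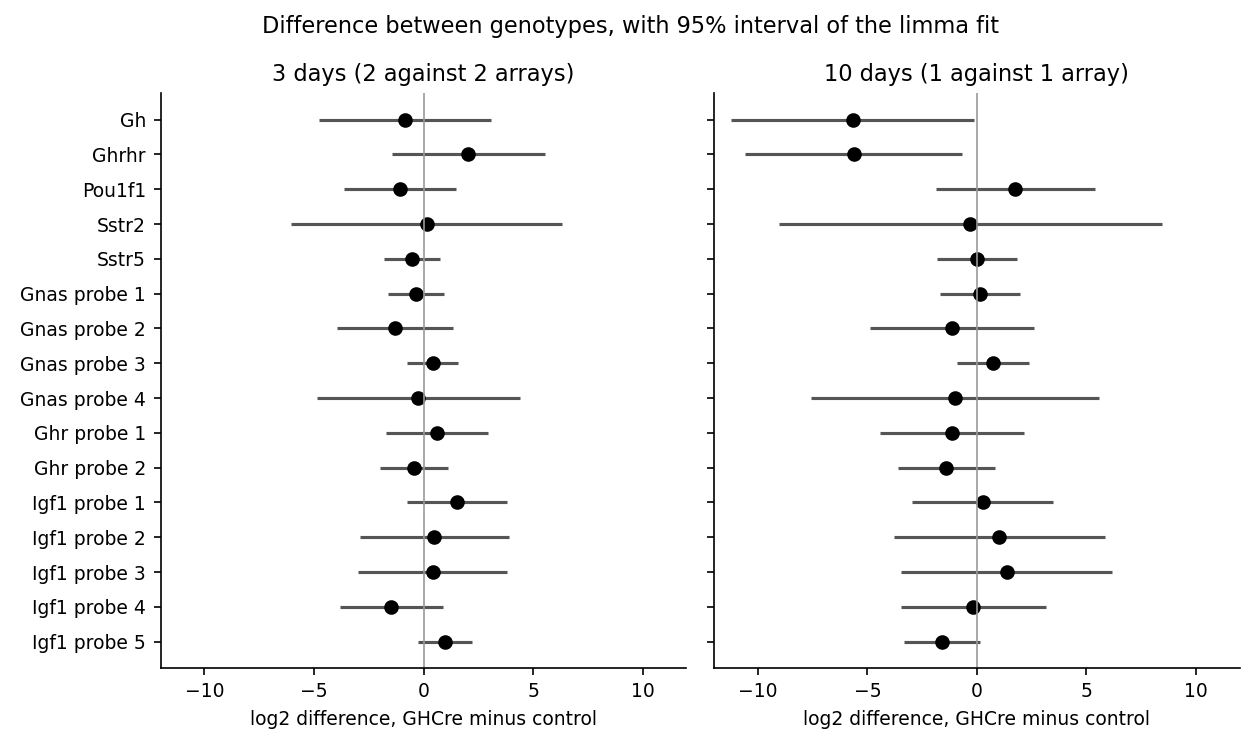
Log2 difference, GHCre minus control, of each tested probe after 3 days and after 10 days (horizontal axis), with the 95% interval of the limma fit. The intervals of Gh and Ghrhr after 10 days end below 0 without passing adjustment over all probes, and the other intervals include 0.

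The split by slide was set beside the hormone genes of other pituitary cells. Of the 16 probes, 5 had no overlap between slide 3 and slides 1 and 2, with 4 below (Gh, Sstr2, Gnas probe 4 and Ghr probe 1) and 1 above (Pou1f1), against 13.3% of all probes, 5.15% below and 8.19% above. For Sstr2 the values of slides 2 and 3 were all at background and have no order among themselves. Gh averaged 2.69 on slide 3 and 6.34 on slides 1 and 2, while Pou1f1 averaged 4.14 on slide 3 and 2.45 on slides 1 and 2. Pomc, the corticotrope hormone precursor, had 4.09 and 0.90 in the GHCre arrays of 3 days, against 5.65 and 1.12 in the control arrays of 3 days. After 10 days Pomc had 1.93 in the GHCre array, against 5.79 in the control array. Like Gh, Pomc was lower on each array of slide 3 than on every other array.

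Cga and Lhb, which encode the shared alpha subunit and the luteinising hormone subunit of gonadotropes, split by slide in the same direction. Cga had 1.16 and -1.0 in the GHCre arrays of 3 days, against 1.34 and -3.47 in the control arrays of 3 days, and after 10 days it had -3.35 in the GHCre array, against 3.88 in the control array. Lhb had 2.08 and -0.90 in the GHCre arrays of 3 days, against 0.86 and -1.20 in the control arrays of 3 days, and after 10 days it had -0.98 in the GHCre array, against 2.72 in the control array. The difference after 10 days, GHCre minus control, was -3.86 in Pomc, -7.23 in Cga, -3.70 in Lhb and -3.28 in Tshb, the thyrotrope hormone subunit, on the log2 scale. The same difference was -0.71 in Tbx19, which lay at background on both arrays, 1.09 in Crhr1, 0.40 in Nr5a1 and 0.32 in Prl. In Gnrhr, the gonadotropin releasing hormone receptor, it was -3.90, but the GHCre value lay at background, so this size is not a measured one. Fshb was above background on none of the arrays.

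Over the marker lists of other cell types, 3 of 39 tested probes lay below on slide 3 without overlap, Pomc, Cga and Lhb. Another 3 lay above, Drd2 of the lactotrope list with Ptprc and Cd68 of the macrophage list. Of all probes tested 5.15% lay below and 8.19% above, so these shares lie near the background. The summed linear level of the corticotrope markers was 17.5 and 2.09 in the GHCre arrays of 3 days, against 51.2 and 2.48 in the control arrays of 3 days, and after 10 days 4.14 in the GHCre array, against 55.5 in the control array. That of the gonadotrope and thyrotrope markers was 8.03 and 3.06 in the GHCre arrays of 3 days, against 7.37 and 2.34 in the control arrays of 3 days, and after 10 days 2.62 in the GHCre array, against 27.6 in the control array. The lactotrope sum ran from 1320 to 2170 over the 6 arrays and did not follow the slides, but it is nearly all Prl. Drd2, another lactotrope marker, was higher on each array of slide 3 than on every other array. The corticotrope sum is nearly all Pomc. Of the other corticotrope markers Crhr1, a receptor of corticotropin releasing hormone, overlapped between slides, and Tbx19, a corticotrope transcription factor, was above background on 2 arrays. Among the gonadotrope and thyrotrope markers Tshb and Nr5a1, a gonadotrope transcription factor, overlapped too. Gnrhr also overlapped but was above background on 2 arrays, and Trhr was above background on none of the arrays. The part of these other hormone genes in the Gh result was not tested.

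**Figure D4:**
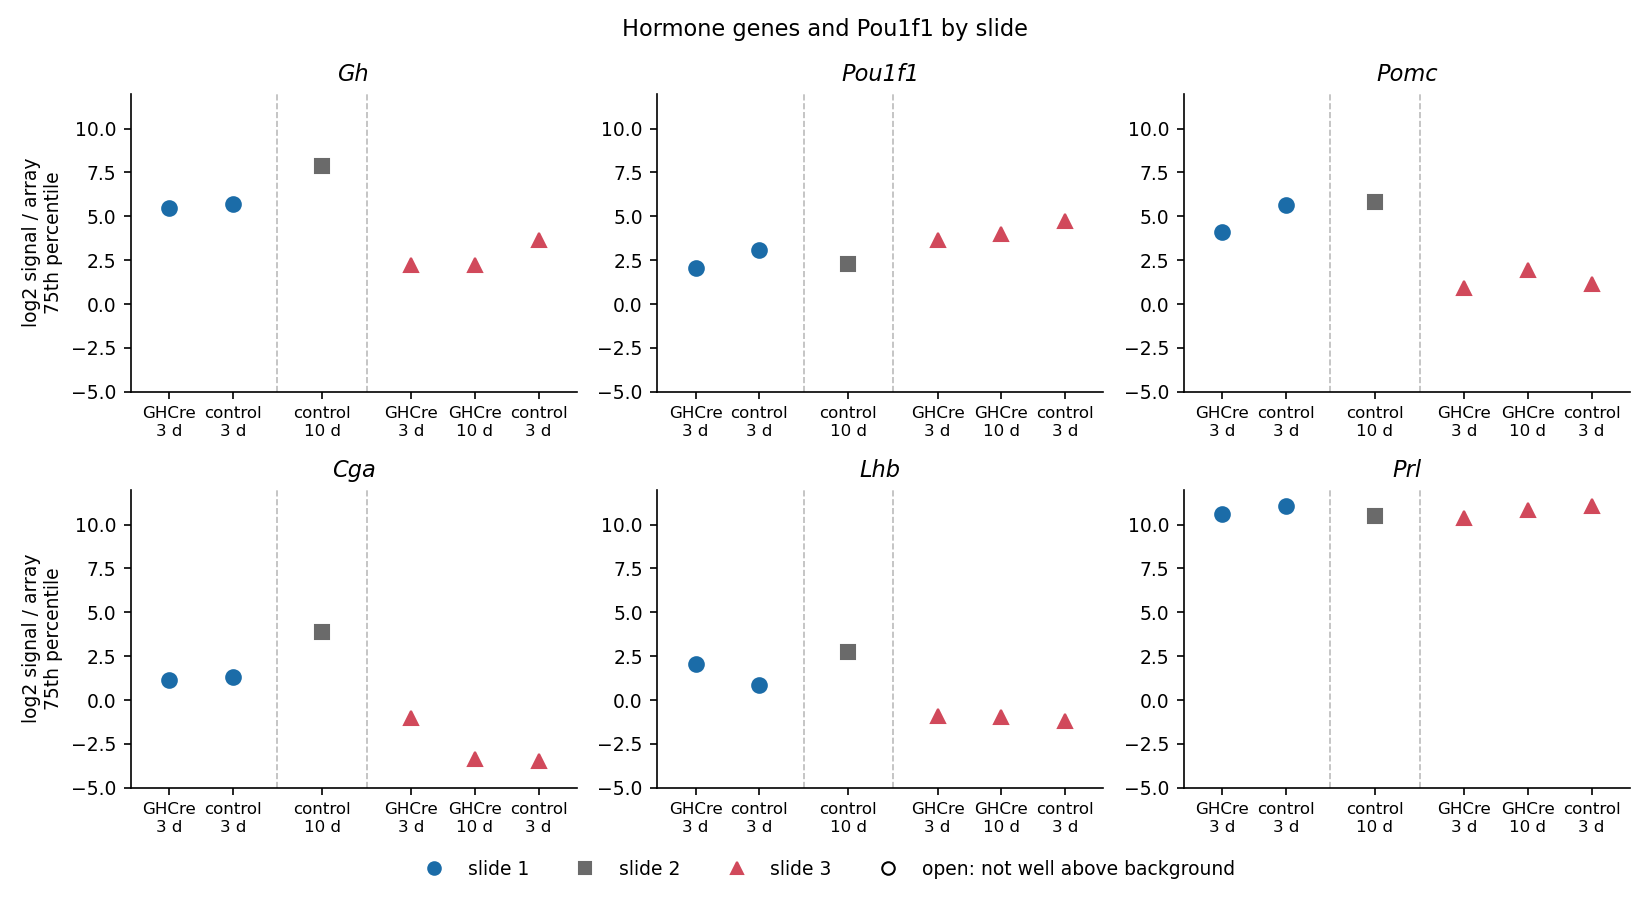
Log2 level (vertical axis, relative to the 75th percentile of the array) of Gh, Pou1f1, Pomc, Cga, Lhb and Prl on the 6 arrays, set out by slide. Gh, Pomc, Cga and Lhb are lower on every array of slide 3 than on slides 1 and 2, Pou1f1 is higher there, and Prl varies little.

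The genes most like Gh in their course over the 6 arrays were sought among 25558 probes of named genes, as the smallest root mean square difference of centred log2 levels. The nearest was 4922501L14Rik at 0.71, followed by Zfp868 at 0.72, 2810428J06Rik at 0.75, 9530082P21Rik at 0.79 and Nck2, an adaptor protein gene, at 0.79. These probes were above background on 3 or 4 of the 6 arrays, and their low values lie at background. Among the other somatotrope genes Ghrhr came nearest, at 1.39 and rank 245, but 4 of its 6 values lie at background. Gnas probe 4, above background on all 6 arrays, had 1.54 and rank 548, and Pou1f1 had 2.82 and rank 23619. The 6 arrays share slides, so these distances are a description.

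Signalling genes around the 9 were described in 4 lists. The genes named from each list were those ranked highest by absolute 3 day difference among genes without group overlap, with no lower limit on its size. Their differences and p-values therefore come from the data that picked them. Over all probes tested, 13221 were higher and 14031 lower after 3 days, with a median of -0.029 and 0% past adjusted p 0.05. After 10 days 13582 of all probes were higher and 13670 lower, with a median of -0.0031. Of the list from the GHRH receptor to cAMP, 30 of 33 genes were tested, of which 13 were higher and 17 lower in GHCre after 3 days, with 0 past adjusted p 0.05 and a median of -0.04. Adcy7, an adenylyl cyclase, had 1.47 and 1.93 in the GHCre arrays of 3 days, against -1.77 and 0.37 in the control arrays of 3 days, a difference of 2.40 ± 0.88 with an adjusted p of 0.749. Adcy3, another adenylyl cyclase, differed by -1.49 ± 0.88, and Crtc3, a coactivator of CREB, by 1.48 ± 0.73. After 10 days 12 genes were higher and 18 lower, with a median of -0.17.

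Of the somatostatin and ghrelin receptor list, 20 of 24 genes were tested, with 9 higher and 11 lower after 3 days, 0 past the threshold and a median of -0.19. Kcnj6, a potassium channel subunit opened by inhibitory G proteins, had -3.59 and -5.75 in the GHCre arrays of 3 days, against -0.83 and -2.26 in the control arrays of 3 days. Its difference was -3.13 ± 1.00, with an unadjusted p of 0.0352 and an adjusted p of 0.732, and the probe was above background on 3 of the 6 arrays. An unadjusted p under 0.05 (limma) was reached by 1 of the 20 genes, against 6.67% of all probes. Plcb1, a phospholipase C, differed by -2.73 ± 1.45, and Gnai1, an inhibitory G protein subunit, by 1.00 ± 0.58. After 10 days 9 genes were higher and 11 lower.

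Of the list for the growth hormone receptor and the insulin-like growth factor axis, 24 of 26 genes were tested. After 3 days 17 of them were higher and 7 lower, with 0 past the threshold. Their median was 0.23, against -0.029 over all probes tested, and the split was not tested. Adam17, a membrane protease known to shed the growth hormone receptor, had -0.07 and -0.80 in the GHCre arrays of 3 days, against -1.95 and -4.02 in the control arrays of 3 days. Its difference was 2.55 ± 0.88, with an unadjusted p of 0.0434 and an adjusted p of 0.739. An unadjusted p under 0.05 (limma) was reached by 1 of the 24 genes, against 6.67% of all probes. Igf2, the other insulin-like growth factor, differed by 2.22 ± 0.96, and Jak2, the kinase of the receptor, by 1.68 ± 0.69. After 10 days 9 genes of this list were higher and 15 lower, with a median of -0.14.

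Of the transcription factors of the somatotrope lineage, 16 of 20 were tested, and after 3 days 8 were higher and 8 lower in GHCre, with 0 past the threshold and a median of 0.02. Foxl2, a forkhead factor of the pituitary, had 7.84 and 7.82 in the GHCre arrays of 3 days, against 8.10 and 7.90 in the control arrays of 3 days. Its difference was -0.18 ± 0.42, and Foxo1, another forkhead factor, differed by 0.36 ± 0.42. After 10 days 10 of these genes were higher and 6 lower, with a median of 0.20.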

How the data were processed

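The deposited values are the processed signal of 6 one-colour Agilent arrays, an intensity in which each spot's background was already subtracted, quantified with Feature Extraction 10.7.3.1, per the file headers. The deposited series table holds log2 values for 38017 probes, which matched quantile normalized processed signal at a correlation of at least 0.9999 on each array, and served as an alternative. A sort yielded 25000 to 50000 cells and the NuGEN Ovation Pico system amplified 1 ng of their RNA, per the labels' protocols.

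Spots of a probe were averaged as log2, with outlier flags left out, and each array was scaled by its 75th percentile, which ran from 186.15 to 298.51. A probe was tested if it was well above background on at least 2 arrays, and no spot was saturated. Where a group lay below background, the fold is a lower bound against the lowest signal above background of its arrays. limma 3.58.1 (R 4.3.3) fitted a mean for each of the 4 groups to all 27252 probes, and genotype with day as an additive model, with Benjamini-Hochberg adjustment over all probes and a threshold of 0.05. The first fit had 2 residual degrees of freedom and a prior of 2.03. Precision is limited by the number of arrays. Each gene list was represented by the probe of highest mean level, and genes of largest 3 day difference without group overlap, at most 3 a list, were named, except 1 that is not reported here. The fit was tested on simulated data with probe variances drawn at the spread that limma estimated here: it returned the simulated differences on average but called none of the changed probes, so a lack of calls does not show a lack of difference. No replicate block was used in the main result. The genes and lists were chosen with earlier results of these data known.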

Additional observations from a re-analysis of the deposited data

Results flagged for a closer look

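No overlap between the 3 day groups, in either direction, was found for 37.6% of all probes tested. Of the 16 tested probes of the members, 6 had no overlap after 3 days with the brighter group above background on all its arrays. How many of all probes also turned in sign after 10 days was not counted, so the count here is a description. For 3 of these 6 probes the difference after 10 days had the opposite sign. In each case the change of the genotype difference between days was tested, and none had an adjusted p under 0.05 (limma, adjusted p = 1 each). The change, 10 days minus 3 days, was 0.54 for Sstr5, 0.50 for Gnas probe 1 and -2.60 for Igf1 probe 5, on the log2 scale. For Sstr5 the 10 day difference was only 0.01. Its sign turned with quantile normalization, with normexp and in the series table, so Sstr5 has no settled sign at 10 days. The 10 day values rest on 1 array a group. Ghrhr had the same pattern of signs but is not counted, because 3 of its 4 values of 3 days lie at background. No group held enough arrays for a check of single outlying arrays.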

How the results depend on the processing

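With 15 alternatives (scaling, background correction, the series table, filters, 1 probe per gene, the prior, a replicate or slide block, and leaving out each 3 day array), no comparison had a probe past adjusted p 0.05. Of 64 member differences, 42 kept their direction in all alternatives run, and 51 of 808 values turned. Many of the 808 values could not turn, so these counts do not measure how stable the directions are. The filters, 1 probe per gene, the prior and the blocks change no difference, only its error or adjustment. Leaving out a 3 day array does not change a difference after 10 days. The lowest adjusted p of a member was 0.473. The replicate block, which at 3 days equals the slide block, left 0 probes called and the Gh difference at -0.84, and same-numbered samples deviated together at a correlation of 0.09. A replicate block over all 6 arrays, added after seeing the data, left 0 probes called after 10 days (1068 with an unadjusted p under 0.05) and the Gh difference at -5.65. Neither replicate block could move these Gh differences, because the block is balanced at 3 days and both 10 day arrays are replicate 1. Only the errors and p-values could change. No slide block could be fitted at 10 days, since the control array was alone on its slide. Over the arrays left out, unadjusted p under 0.05 after 3 days was reached by 1031 to 2916 probes. With normexp at the 75th percentile, and with normexp and quantile normalization, Sstr2 was -0.18 and -0.014 after 3 days, 0.021 and 0.037 after 10 days, and 0.20 and 0.051 for the change between days. Over both days Sstr2 was 0.032 with quantile normalization, 0.0033 with normexp and quantile normalization, and 0.029 in the series table. Sstr5 after 10 days was -0.00053 with quantile normalization, -0.031 and -0.053 with normexp, and -0.025 in the series table. Over both days Gnas probe 1 was 0.0076 with quantile normalization and 0.021 with normexp added, Ghr probe 1 was -0.052 and -0.074 with normexp, and Igf1 probe 5 was -0.0091 with normexp at the 75th percentile.

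Leaving out single 3 day arrays gave ranges that crossed 0 for these results. After 3 days these were Gh -2.47 to 0.78, Sstr2 -2.08 to 2.36, Gnas probe 4 -2.30 to 1.85, Ghr probe 1 -0.41 to 1.65, Ghr probe 2 -0.98 to 0.088, Igf1 probe 2 -1.14 to 2.14 and Igf1 probe 3 -1.24 to 2.05. For the change between days they were Sstr2 -2.66 to 1.78, Gnas probe 2 -1.02 to 1.36, Gnas probe 4 -2.85 to 1.30, Igf1 probe 2 -1.12 to 2.16 and Igf1 probe 3 -0.69 to 2.60. Over both days they were Pou1f1 -0.34 to 0.62, Sstr2 -1.32 to 1.22, Gnas probe 1 -0.31 to 0.03, Gnas probe 4 -1.74 to 0.63, Ghr probe 1 -0.73 to 0.45, Igf1 probe 2 -0.21 to 1.66, Igf1 probe 3 -0.12 to 1.76 and Igf1 probe 5 -0.24 to 0.0043. The cause was not tested. Signal over background limits Ghrhr and Sstr2, each above background on 2 arrays, and Ghsr, above it on none.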
